A study of Homo sapiens with 18 samples.

Results

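The 500 regions of MDA-MB-231 chromatin with the most H3K27ac-covered DNA were described from deposited ChIP-seq peak lists. Neighbouring peaks of the H3K27ac list on chromosomes 1 to 22 were joined into 1 region when the gap between them was 12500 bp or less. The bases covered by peaks were then summed in each region, and the 500 regions with the largest sum were taken, out of 25286 joined regions. The regions were thus chosen by their H3K27ac values, and every H3K27ac value below is a description with no test.

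MDA-MB-231 is an established cell line of triple-negative breast cancer. The series holds 18 ChIP-seq libraries in 9 groups of 2. KDM2B, MYC, ATF4, H3K4me3, H3K27me3, H2AK119ub and an input were taken from parental cells, whereas H3K27ac and its own input came from cells carrying an empty vector, so antibody and cell stock cannot be told apart between H3K27ac and the other 5 lists used here. Each target has 1 list for its 2 libraries, which leaves no replicate check, and no library depth is known. The ATF4 libraries were not analysed here.

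H3K27ac is the acetylation of lysine 27 of histone H3 and marks active promoters and enhancers. Long runs of closely spaced acetylated enhancers, often called super-enhancers or stretch enhancers, are known to lie at genes that define a cell's identity and, in tumours, at oncogenes. MYC is a transcription factor that binds active promoters and enhancers, and H3K4me3 marks active promoters. KDM2B is a histone demethylase that binds unmethylated CpG-rich DNA through its CXXC domain and recruits a variant of Polycomb repressive complex 1, which places H2AK119ub. H3K27me3, the mark of Polycomb repressive complex 2, sits on the same lysine as H3K27ac and is a mark of silent genes.

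The promoters below are selected examples of gene starts inside these regions and not a typical sample. Each sequence is the 250 bases upstream of a RefSeq transcript start (assembly GRCh38.p14, hg38), written from 5′ to 3′ on the gene's own strand. Every window shown lies in one of the 500 regions and overlaps a MYC peak and a KDM2B peak by at least 1 bp. The KDM2B overlap can be small. The strongest KDM2B peak in the region of BCAR3 (chr1:93846160-93846922) meets only the upstream edge of the window. At SMAD3 the overlapping KDM2B peak (chr15:67064250-67065364) also meets only the upstream edge. Capitals mark the E-box CACGTG, the sequence bound by MYC with its partner MAX, or the AP-1 site TGANTCA, the sequence bound by JUN and FOS family factors. Both motifs read the same on either strand, N stands for any base, and none of the matches shown overlap. Among all 1524 such windows on an H3K27ac peak in the 500 regions, 6.76% held CACGTG, 6.96% held TGANTCA and 43% overlapped KDM2B.
SMAD3 promoter (chr15:67065352-67065601, plus strand): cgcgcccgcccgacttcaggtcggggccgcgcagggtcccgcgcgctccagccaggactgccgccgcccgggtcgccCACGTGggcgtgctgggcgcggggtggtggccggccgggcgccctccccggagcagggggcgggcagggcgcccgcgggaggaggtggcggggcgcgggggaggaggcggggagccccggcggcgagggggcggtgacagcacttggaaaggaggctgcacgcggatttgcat
MAFG promoter (chr17:81927736-81927985, minus strand): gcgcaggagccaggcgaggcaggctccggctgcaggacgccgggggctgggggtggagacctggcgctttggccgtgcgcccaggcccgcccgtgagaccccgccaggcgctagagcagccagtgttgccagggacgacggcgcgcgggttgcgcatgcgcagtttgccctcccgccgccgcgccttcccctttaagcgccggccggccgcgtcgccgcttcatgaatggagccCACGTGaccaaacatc
DUSP1 promoter (chr5:172771196-172771445, minus strand): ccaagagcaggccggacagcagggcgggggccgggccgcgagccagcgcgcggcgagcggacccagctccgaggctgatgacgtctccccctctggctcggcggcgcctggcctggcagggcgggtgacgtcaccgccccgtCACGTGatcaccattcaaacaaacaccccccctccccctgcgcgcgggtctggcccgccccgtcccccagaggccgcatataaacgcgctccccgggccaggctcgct
KLF6 promoter (chr10:3785210-3785459, minus strand): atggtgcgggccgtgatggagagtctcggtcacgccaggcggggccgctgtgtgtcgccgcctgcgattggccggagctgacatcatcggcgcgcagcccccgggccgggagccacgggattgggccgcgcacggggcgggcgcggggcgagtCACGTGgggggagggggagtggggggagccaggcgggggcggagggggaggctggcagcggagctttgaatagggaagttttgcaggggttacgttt
BCAR3 promoter (chr1:93845911-93846160, minus strand): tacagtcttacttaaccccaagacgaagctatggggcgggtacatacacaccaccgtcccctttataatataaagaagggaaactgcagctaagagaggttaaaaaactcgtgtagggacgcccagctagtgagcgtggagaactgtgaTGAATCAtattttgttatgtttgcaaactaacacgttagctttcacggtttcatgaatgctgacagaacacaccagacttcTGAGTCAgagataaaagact
ANXA2 promoter (chr15:60397987-60398236, minus strand): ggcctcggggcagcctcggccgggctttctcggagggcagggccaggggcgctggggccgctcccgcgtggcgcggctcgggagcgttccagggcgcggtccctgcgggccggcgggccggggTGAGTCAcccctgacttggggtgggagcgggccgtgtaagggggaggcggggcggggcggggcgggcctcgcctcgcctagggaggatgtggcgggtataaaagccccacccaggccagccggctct
IL11 promoter (chr19:55370464-55370713, minus strand): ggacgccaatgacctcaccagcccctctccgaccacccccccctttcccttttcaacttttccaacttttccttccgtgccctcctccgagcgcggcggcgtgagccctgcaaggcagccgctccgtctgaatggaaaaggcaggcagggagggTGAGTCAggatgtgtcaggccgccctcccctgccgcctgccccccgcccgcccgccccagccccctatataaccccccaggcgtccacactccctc
EGFR promoter (chr7:55018767-55019016, plus strand): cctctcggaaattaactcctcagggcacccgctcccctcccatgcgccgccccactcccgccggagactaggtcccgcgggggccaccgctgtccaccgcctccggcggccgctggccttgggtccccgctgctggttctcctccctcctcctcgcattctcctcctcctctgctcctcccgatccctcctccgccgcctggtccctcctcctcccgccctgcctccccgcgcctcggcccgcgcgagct
SMAD3, the signal transducer of TGF-beta receptors, MAFG, a small MAF factor, DUSP1, a phosphatase of MAP kinases, and KLF6, a zinc finger factor, carry 1 E-box each. BCAR3, an adaptor of adhesion signalling, carries 2 AP-1 sites, while ANXA2, an annexin of the cell surface, and IL11, a cytokine, carry 1 each. EGFR, the epidermal growth factor receptor, has neither motif in this window and is shown because its region is mapped below. Peak folds are the authors' summit enrichment over background, and a summit can lie outside the window. The highest folds of peaks that overlap the SMAD3 window were 23.8 for MYC, 4.15 for KDM2B and 65.7 for H3K4me3. A further KDM2B peak, of fold 4.30, began just downstream of this window. The corresponding folds at EGFR were 13.8, 6.70 and 61.0, and at DUSP1 they were 17.5, 5.72 and 47.7.

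Small RNA genes in the regions are shown by their mature sequences from RefSeq (GRCh38.p14), with the seed (bases 2 to 8) in capitals, because several of the largest regions hold no or few protein-coding genes but do hold a microRNA.
hsa-miR-100-5p (chr11:122152275-122152296, minus strand): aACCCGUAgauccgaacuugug
hsa-let-7a-5p (chr11:122146568-122146589, minus strand): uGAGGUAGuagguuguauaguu
hsa-miR-125b-5p (chr11:122099809-122099830, minus strand): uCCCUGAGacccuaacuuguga
hsa-miR-29a-3p (chr7:130876748-130876769, minus strand): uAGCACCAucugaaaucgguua
hsa-miR-29b-3p (chr7:130877467-130877489, minus strand): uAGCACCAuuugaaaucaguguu
hsa-miR-21-5p (chr17:59841273-59841294, plus strand): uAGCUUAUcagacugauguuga
The hairpins of miR-100, let-7a-2 and miR-125b-1 share the region ranked 31 at MIR100HG. MiR-29a and miR-29b share the seed AGCACCA and the region ranked 41, which also holds part of LINC-PINT and no protein-coding gene. MiR-21, a microRNA known for its abundance in tumours, lies in the region ranked 53 with VMP1. Of these 6 mature sequences, 5 lay on an H3K27ac peak and miR-125b-5p lay between peaks. Of 1461 hairpins in the RefSeq table, 105 (7.19%) lay in one of the 500 regions, spread over 80 of them, and 86 of the 105 lay on an H3K27ac peak. The sequences shown are selected examples of these. Among those left out, miR-760 (rank 6) and miR-200c and miR-141 (both rank 90) also lay on an H3K27ac peak.

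The 500 regions are 1.98% of all joined regions but hold 11132 of 93685 H3K27ac peaks (11.9%) and 25.6 of 134.6 Mb of H3K27ac-covered DNA (19%). Covered length ran from 31020 to 278992 bp with a median of 42731 bp, and the whole span from first to last peak had a median of 71279 bp. The median region joined 19 peaks, and peaks filled a median of 64.9% of its span. Only 20 regions had over 100 kb of covered DNA. Of the 1109 H3K27ac peaks of 10 kb or more in the list, 603 (54.4%) lay in these regions. The glucose transporter gene SLC2A1, ranked 207, was the only region made of 1 peak, 46656 bp wide.

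**Figure D1:**
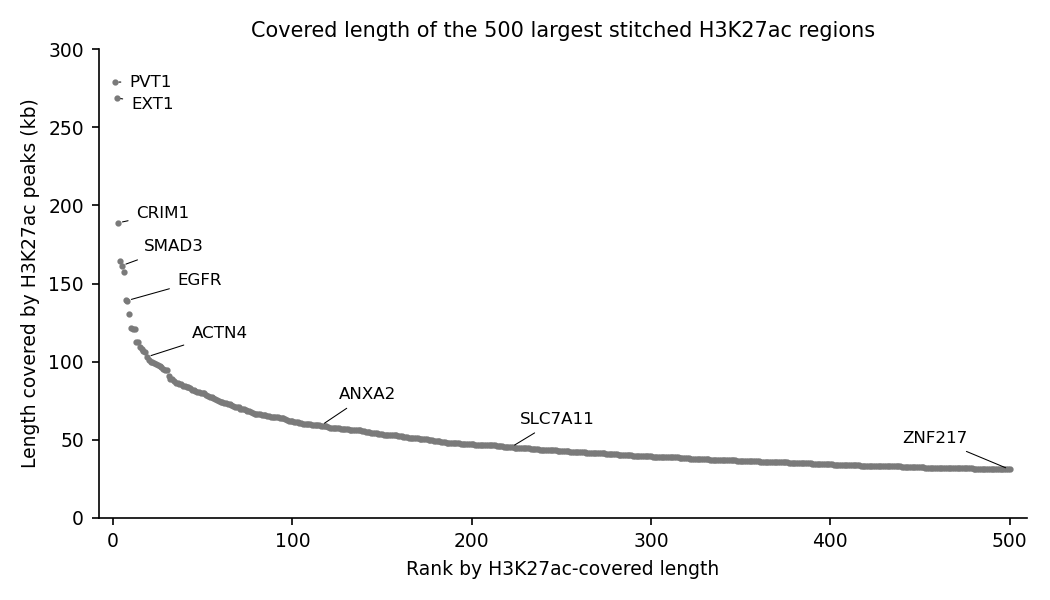
Length covered by H3K27ac peaks (kb, vertical axis) against rank (horizontal axis), with 1 point for each of the 500 regions and selected genes named. The 2 regions at PVT1 and EXT1 stand above the rest, and the values then fall to 31020 bp at ZNF217.

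The largest region lay on chromosome 8 over PVT1, a long non-coding RNA gene next to MYC (chr8:127791211-128133939). It had 278992 bp of covered DNA in 114 peaks and held no protein-coding gene, and the MYC gene itself lay 48260 bp outside it. MYC belonged to a separate joined region ranked 1157. Over PVT1 the MYC list had 55 peaks, with a highest fold of 39.2 in a peak of 6574 bp, and KDM2B had 13 peaks with a highest fold of 3.59. The region ranked 2, over EXT1, an enzyme gene of heparan sulfate synthesis (chr8:117794013-118120608), was nearly as large, with 268882 bp in 103 peaks. Its 43 MYC peaks were weak, with a highest fold of 5.92, against a median of 16.2 for the strongest MYC peak of each of the 500 regions.

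Next came CRIM1 and FEZ2 (chr2:36329356-36599659, 188905 bp), and SLC25A51 with SHB followed with 164694 bp. SLC25A51 carries NAD into mitochondria and SHB is an adaptor of receptor tyrosine kinases. BCAR3 ranked 6, MICAL2, which oxidises actin, ranked 7, and NRP1, a co-receptor of VEGF and semaphorins, ranked 9. CMIP, ranked 10, was the largest region without a KDM2B peak, yet it had 30 MYC peaks. The region ranked 13 (chr11:64181835-64365456) differed from its neighbours in rank by its gene content, with 19 protein-coding genes from STIP1 to RPS6KA4, 29 KDM2B peaks and 66 H2AK119ub peaks. The widest H3K27ac peak of the list, 56247 bp, lay in the region ranked 19 at ACTN4, the gene of an actin crosslinker.

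SMAD3 and EGFR show how the lists lie within a region. The SMAD3 region (chr15:66995825-67198311) had 161527 bp of covered DNA in 42 peaks and reached 69777 bp upstream of the gene record. KDM2B peaks, 10 in all, were densest at the SMAD3 start, where the strongest had a fold of 4.30, whereas the 42 MYC peaks were spread over the upstream part and the gene body. At EGFR (chr7:55014661-55214560, 139127 bp in 70 peaks) the region ran from just before the promoter to beyond the end of the gene record. Its strongest KDM2B peak (fold 6.70, 2140 bp) covered the promoter printed above, and the strongest of 28 MYC peaks (fold 14.9) lay 59463 bp into the region, inside the gene record. H2AK119ub had 31 peaks at SMAD3 and 8 at EGFR, and H3K27me3 had none in either.

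**Figure D2:**
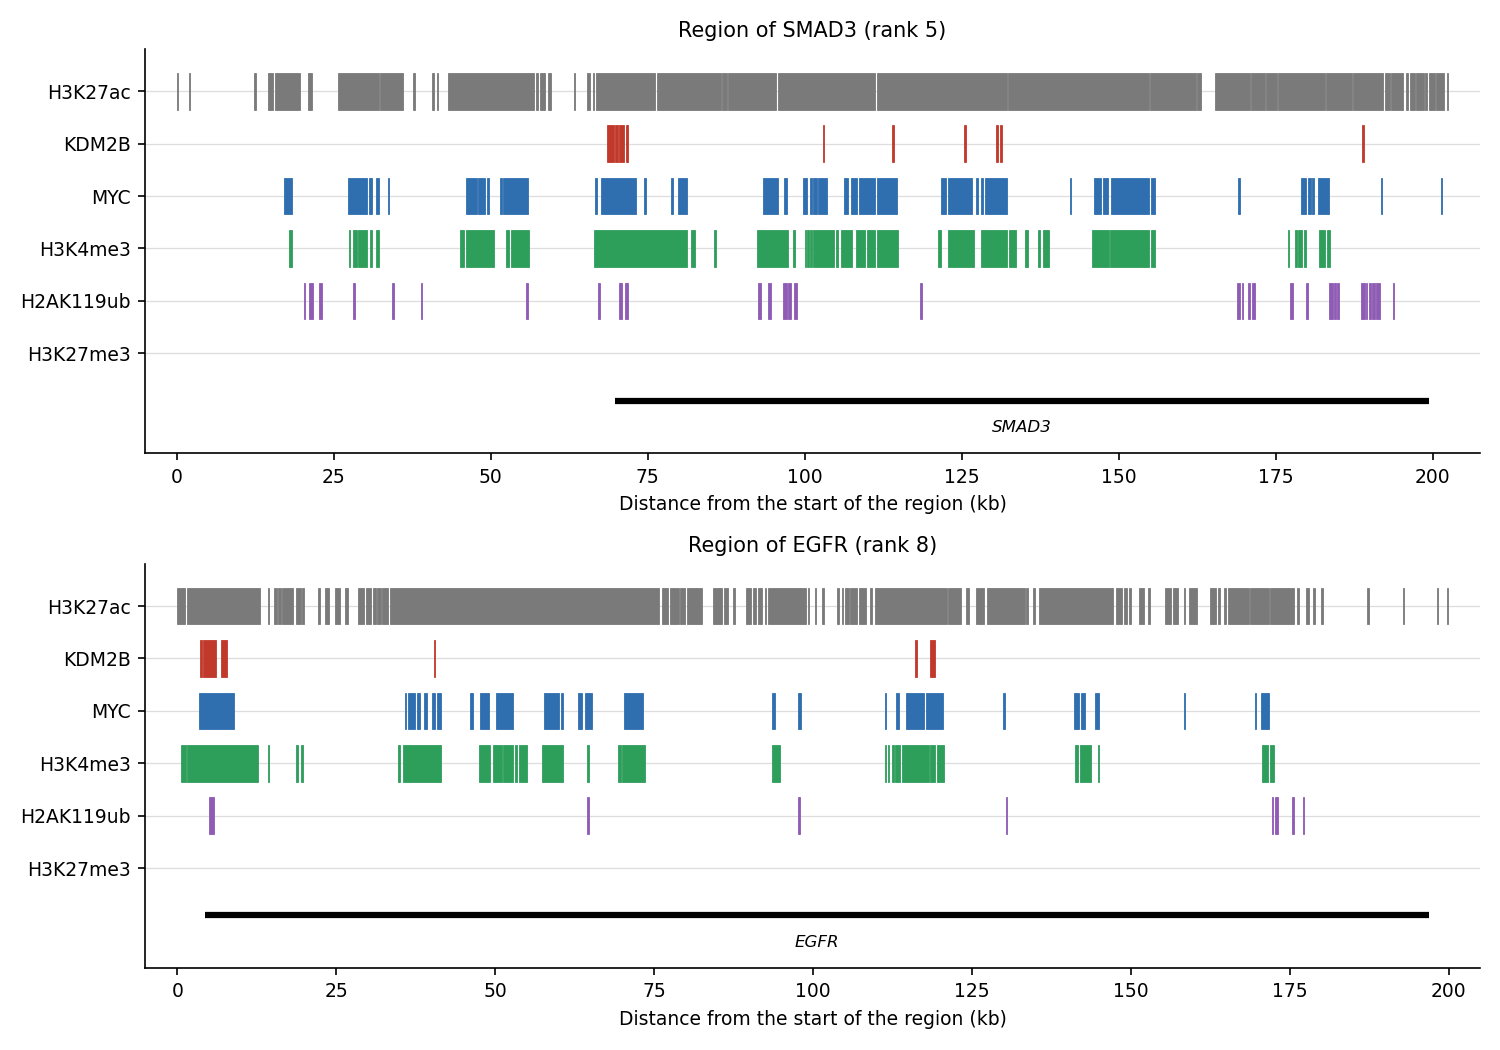
Peaks of the 6 lists (coloured boxes, 1 row per list) and the gene record (black bar) against distance from the start of the region in kb, at SMAD3 (top, rank 5) and EGFR (bottom, rank 8), with the narrowest peaks drawn at the width of a line. KDM2B peaks cluster at the gene start, MYC and H3K4me3 peaks recur along both regions, and the H3K27me3 row is empty.

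The boundary of the set cuts through a smooth series of values. The 3 regions just inside were those of TGFB2 (31041 bp), ADAM8 with TUBGCP2 and 2 ZNF511 records (31023 bp) and ZNF217 (31020 bp). Those just outside were at HIVEP3 (30967 bp), KIRREL1 (30967 bp) and the group of LTC4S, MGAT4B, SQSTM1 and MRNIP (30864 bp). Across chromosomes, 48 of the 500 regions lay on chromosome 1, 45 on chromosome 17, 43 on chromosome 2 and 39 on chromosome 19. Chromosome 17 thus held 9% of the 500, beside 3.88% of all joined regions and 6.11% of protein-coding records. Chromosome 19 held 7.8%, beside 3.43% and 7.59%, so it was close to its share of protein-coding records. The 500 regions took 30.8% of the H3K27ac-covered DNA on chromosome 17 and 29.2% on chromosome 19, beside 19% over all chromosomes used. The share was 24.8% on chromosome 8, 9.3% on chromosome 13 and 8.03% on chromosome 4.

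Protein-coding genes were counted in the regions by RefSeq record. Of 19122 on chromosomes 1 to 22, 1226 (6.41%) overlapped one of the 500 regions and 1107 (5.79%) had a start inside. A median of 2 protein-coding genes overlapped a region. Of the 500, 48 overlapped none, 193 overlapped 1 and 72 overlapped 5 or more. The counts of gene lists below are read against the 6.41% of all protein-coding records and have no test, and the lists were chosen with earlier results of these data known.

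AP-1 factor genes overlapped the regions in 7 of 15 cases (46.7%): FOSB, MAFG, FOSL2, FOSL1, MAFK, MAFF and JUND, in order of rank. FOSL1, a FOS family factor of invasive cells, lay in the region ranked 108 with an H3K27ac peak of 40176 bp, whereas JUN, its common partner, fell outside with a region ranked 986. In the TGF-beta pathway the count was 10 of 26 (38.5%). These were the receptor TGFBR2, the transducer SMAD3, the inhibitors SMAD7, SKI and SMURF2, the ligands TGFB1 and TGFB2 and the target genes ID1, ID3 and TGFBI. Adhesion and actin genes gave 13 of 34 (38.2%), led by ACTN4 (rank 19), the myosin heavy chain MYH9 (rank 30), the integrin subunits ITGB5 (rank 100) and ITGA3 (rank 117), the focal adhesion scaffold PXN (rank 104) and PDLIM7 (rank 122).

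Other transcription factors of invasive cells gave 14 of 39 (35.9%), among them the hypoxia factor HIF1A (rank 35), RUNX1 (rank 56), the chromatin protein HMGA2 (rank 74), ETS1 (rank 79), the interferon factor IRF1 and KLF6 (rank 128). YAP and TEAD genes and their targets gave 6 of 21 (28.6%), including the matricellular factor CCN1 (rank 64) and the coactivator WWTR1 (rank 451). By a start inside a region this count was 4 of 21 (19%), beside 5.79% of all protein-coding records. Records of this list are long, with a median of 59949 bp, beside 24490.5 bp over all. Receptor kinase and RAS pathway genes gave 9 of 33 (27.3%), with EGFR, EPHA2, the early response gene IER3, DUSP1, the EGFR ligand HBEGF and the inhibitor SPRY4 highest in rank. Ribosomal protein genes gave 6 of 28 (21.4%) and inflammatory genes 3 of 32 (9.38%: SOCS3, LIF and IL11). Of 9 subunits of the KDM2B complex, only PCGF1, the subunit that defines this variant of the complex, overlapped a region (11.1%), and the KDM2B gene lay in a region ranked 4722.

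The list of long non-coding RNA loci had 9 of 17 entries in the regions (52.9%), beside 3.52% of all 17795 lncRNA records. The list is mixed, so shares of 7.19% of microRNA hairpins and 6.41% of protein-coding records also apply. By a listed start inside a region the count was 4 of 17 (23.5%), though PVT1 has no listed start. The list includes small RNA hosts, microRNA genes and the protein-coding gene VMP1. Its entries in the regions were PVT1, MIR100HG, MIR29B1, LINC-PINT, MIR21, VMP1, MALAT1, NEAT1 and SNHG1. These are not separate regions, since MIR29B1 and LINC-PINT shared a region, as did MIR21 and VMP1. MALAT1 and NEAT1, neighbouring nuclear RNAs, shared the region ranked 72.

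**Figure D3:**
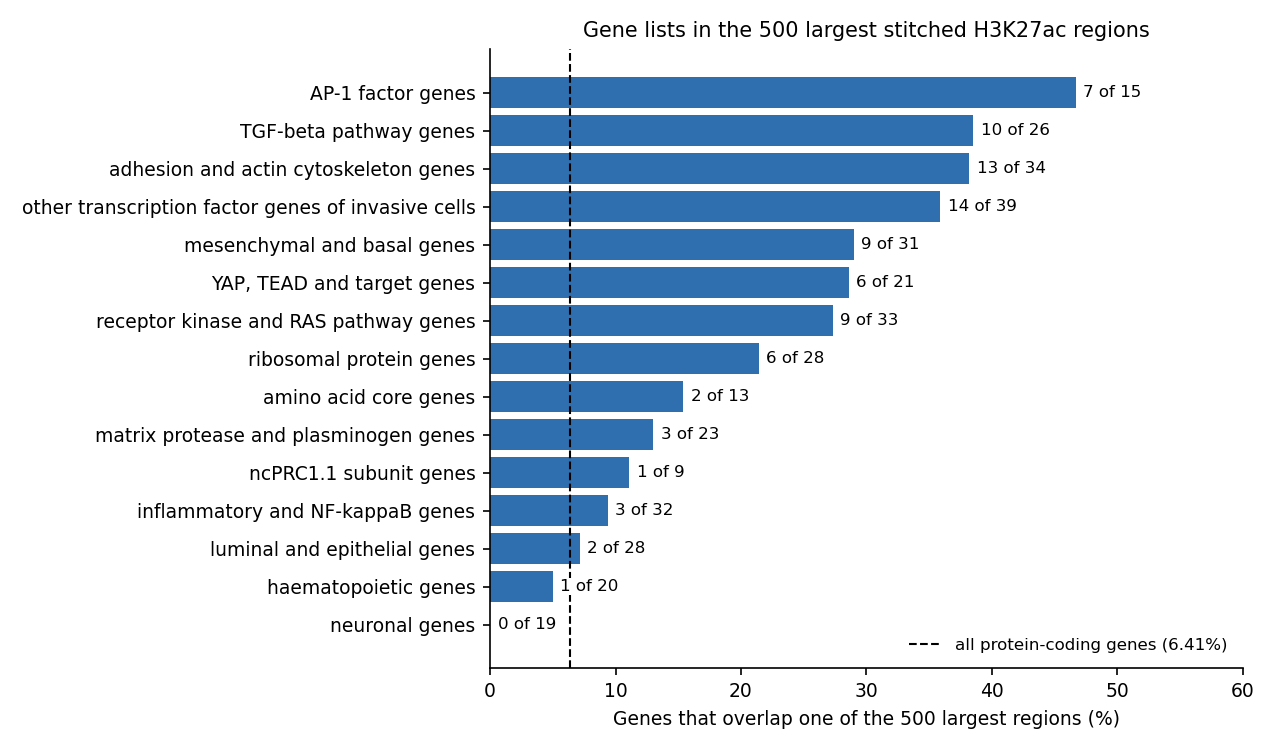
Percent of the genes of each list that overlap one of the 500 regions (bars, horizontal axis), with counts at the bar ends and the 6.41% of all protein-coding genes as a dashed line. AP-1, TGF-beta, adhesion and other transcription factor lists lie at 35.9% to 46.7%, and the haematopoietic and neuronal lists lie below the line.

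Marker lists gave a check of the labelled cell type. Mesenchymal and basal genes overlapped a region in 9 of 31 cases (29%): EGFR, the matrix enzyme LOXL2, ANXA2, the receptor kinase AXL, the S100 genes S100A4 and S100A6, COL4A2, NT5E and COL4A1. Of the others, CD44, VIM, COL1A1 and SPARC were in regions ranked 532, 748, 830 and 857. The transcription factors ZEB1 and SNAI2 and the fibronectin gene FN1 were far lower, at 3706, 4849 and 6153, and TWIST1, KRT5 and KRT14 overlapped no joined region. Luminal and epithelial genes gave 2 of 28 (7.14%), CLDN7 and MUC1. Both lay in gene-dense regions, with 9 and 8 protein-coding genes. A further claudin gene of this list, CLDN4, was in a region ranked 556 (29374 bp), and PGR and TFF1 overlapped none. Haematopoietic genes gave 1 of 20, CSF1R, by its record and not by its start, and neuronal genes gave 0 of 19.

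Among 13 genes of amino acid supply and its regulators, 2 lay in the regions. SLC7A11, the light chain of the cystine and glutamate exchanger, was in the region ranked 222 (chr4:138172655-138261890, 45227 bp in 35 peaks), with 13 MYC peaks, a highest MYC fold of 10.6 and no KDM2B or H2AK119ub peak. SLC3A2, the heavy chain that partners it, was in the region ranked 318 (chr11:62828971-62889740, 38286 bp in 11 peaks). That region had 10 MYC peaks up to a fold of 32.3 and 9 KDM2B peaks up to 4.52, and it is shared with the small nucleolar RNA host SNHG1. SLC7A5, the transporter chain that also pairs with SLC3A2, had a region ranked 537, and PSPH, the last enzyme of serine synthesis, 1018. Ranks were 1157 for MYC, 1374 for ATF4, 1908 for the glutamine carrier SLC1A5, 4722 for KDM2B and 5838 for SHMT2. PSAT1, MTHFD2, PHGDH and ASNS ranked 7424, 14163, 15664 and 18731.

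H3K27ac peaks of the regions lay mostly away from gene starts. With a window of 2.5 kb around each start, 8985 of 11132 peaks (80.7%, 95% Wilson interval 80.0 to 81.4, which covers counting error only, as do all intervals here) were away, against 75.1% (74.8 to 75.4) in the other regions. By covered bases the order was the opposite, with 58.3% away in the 500 regions and 59.3% in the others. A region had a median of 3 peaks near a start, and 53 of the 500 had none, beside 114 of the next 500 and 58.2% of all other regions. The starts cover 11145 of 17795 lncRNA records, and PVT1 is not among them. In 15 of those 53 regions an H3K27ac peak lay within 2.5 kb of an end of another lncRNA record.

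MYC peaks were found in each of the 500 regions (100%, interval 99.2 to 100), beside 63.6% of all joined regions and 99.4% of the next 500 in rank. Long regions meet more peaks by their length, so the density is given as well. Unless span is named, a density here counts all peaks in a region, gaps included, per 10 kb of its H3K27ac-covered DNA. For MYC it was 2.75 in the 500 regions and 2.96 in the others. Per 10 kb of span the order was the opposite, at 1.75 and 1.66. MYC peaks covered 31.0% and 28.6% of the H3K27ac-covered bases. The 7031 MYC peaks of the regions were 14.3% of the list. Of these, 4952 (70.4%) lay away from gene starts, against 53% of MYC peaks in the other regions. Folds were lower away from starts, with a median of 3.18 against 5.63 near starts. The strongest were at PROCA1 and RPL23A (rank 461, fold 75.4), at PCBP1 (rank 365, fold 74.5) and at NOLC1 and PPRC1 (rank 364, fold 73.0). These regions also hold other protein-coding genes, such as RAB34 and TRAF4 at rank 461, ASPRV1 at rank 365 and LDB1 at rank 364.

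H3K4me3 also had a peak in all 500 regions, beside 76% of all joined regions. Its density was 2.76 peaks per 10 kb in the 500 regions and 3.70 in the others, at 54.3% and 56.5% of H3K27ac-covered bases. Away from gene starts the median fold was 3.07, against 29.5 near starts. Of the 4952 MYC peaks away from starts in the 500 regions, 4080 (82.4%) overlapped an H3K4me3 peak. This share was not counted in the other regions, so it cannot be read as particular to the 500. Coverage of the acetylated bases by H3K4me3 ran from 5.38% to 100% among the 500, with a median of 53.5%, and the highest value was in the gene-dense region of FOSL1.

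KDM2B had a peak in 422 of the 500 regions (84.4%, interval 81.0 to 87.3), beside 34.8% of all joined regions and 69.8% of the next 500. Its density went the other way. There were 0.816 KDM2B peaks per 10 kb of covered DNA in the 500 regions, 0.845 in the next 500 and 1.17 in all others, and the peaks covered 5.28%, 5.49% and 6.93% of the acetylated bases. Per 10 kb of span the densities were 0.52, 0.494 and 0.658, so by that measure the next 500 were lower than the 500 regions. Nearly all of the 2086 KDM2B peaks in the regions overlapped H3K27ac (99.6%), MYC (98.9%) and H3K4me3 (99.5%). In the other regions the shares were close to these, at 98.9%, 97.8% and 97.5%. Of the MYC peaks in the 500 regions fewer had KDM2B: 45.7% near gene starts and 8.5% away from them. These 2 shares were not counted in the other regions. The share of regions with KDM2B was 41.8% when H3K27ac peaks near gene starts were removed before joining.

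The strongest KDM2B peaks were at BCAR1 (rank 89, fold 11.0), an adhesion scaffold that binds BCAR3, at B3GNT5 (rank 368, fold 9.61) and at SEPTIN9 (rank 118, fold 8.69). The most KDM2B peaks, 34, were in the region ranked 23, which holds STK11, CIRBP and 5 other protein-coding genes. The 78 regions without KDM2B had a median of 1 H3K27ac peak near a start, against 4 in the 422 with KDM2B, and 41% of them had none, against 4.98%. Their strongest MYC peak had a median fold of 7.59, against 18.2, and 47.4% of them had H2AK119ub, against 89.1%. Across the 500 regions the number of KDM2B peaks went with the number of H3K27ac peaks near starts (Spearman's rho 0.490, Pearson's r 0.498). This is a description over regions that share the same lists and differ in length.

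**Figure D4:**
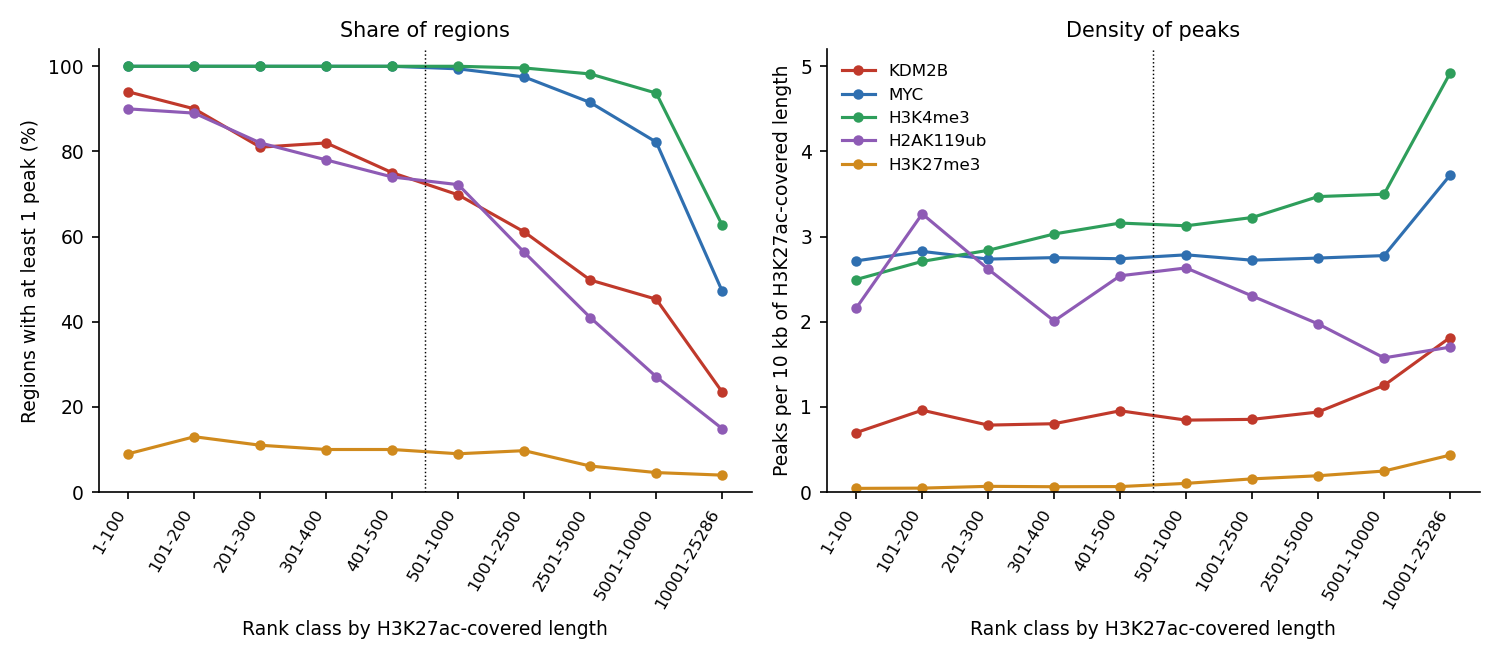
Percent of regions with at least 1 peak of each target (left) and peaks per 10 kb of H3K27ac-covered DNA (right) in classes of rank by covered length, with the 500 largest regions left of the dotted line. KDM2B is present in 94% of ranks 1 to 100 and 23.5% of ranks beyond 10000, while its density is 0.699 and 1.81 in the same classes.

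H3K27ac peaks of like width were also compared. Over all widths 10.7% of peaks in the 500 regions had KDM2B, beside 12.1% of all H3K27ac peaks, 30.2% had MYC, beside 31.2%, and 44.1% had H3K4me3, beside 50.7%. In peaks of 2000 to 5000 bp, KDM2B was at 23.1% (interval 21.0 to 25.4) in the 500 regions and 37.7% (36.9 to 38.6) in the others. MYC was at 68.3% against 76.6%, and H3K4me3 at 79.6% against 89.9%. These classes mix peaks near gene starts with peaks away from them. Among peaks of 2000 to 5000 bp away from starts, KDM2B was at 6.46% (5.06 to 8.21) against 7.63% (7.01 to 8.30) and MYC at 58.3% against 58.8%, with overlapping intervals, while H3K4me3 was at 73% against 81.8%. Split by position alone, over all widths, KDM2B was at 42.1% against 40.8% near starts and 3.15% against 2.87% away. MYC was at 64.4% against 65.6% near starts and 22.1% against 20.1% away. In peaks under 500 bp the MYC shares were 5.82% and 9.47%. In peaks of 10 kb or more the KDM2B shares were 60.7% (56.7 to 64.5) and 64% (59.8 to 68.1), with overlapping intervals, and MYC was at 100% and 99.4%. Neighbouring peaks are not independent, so these intervals are too narrow.

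**Figure D5:**
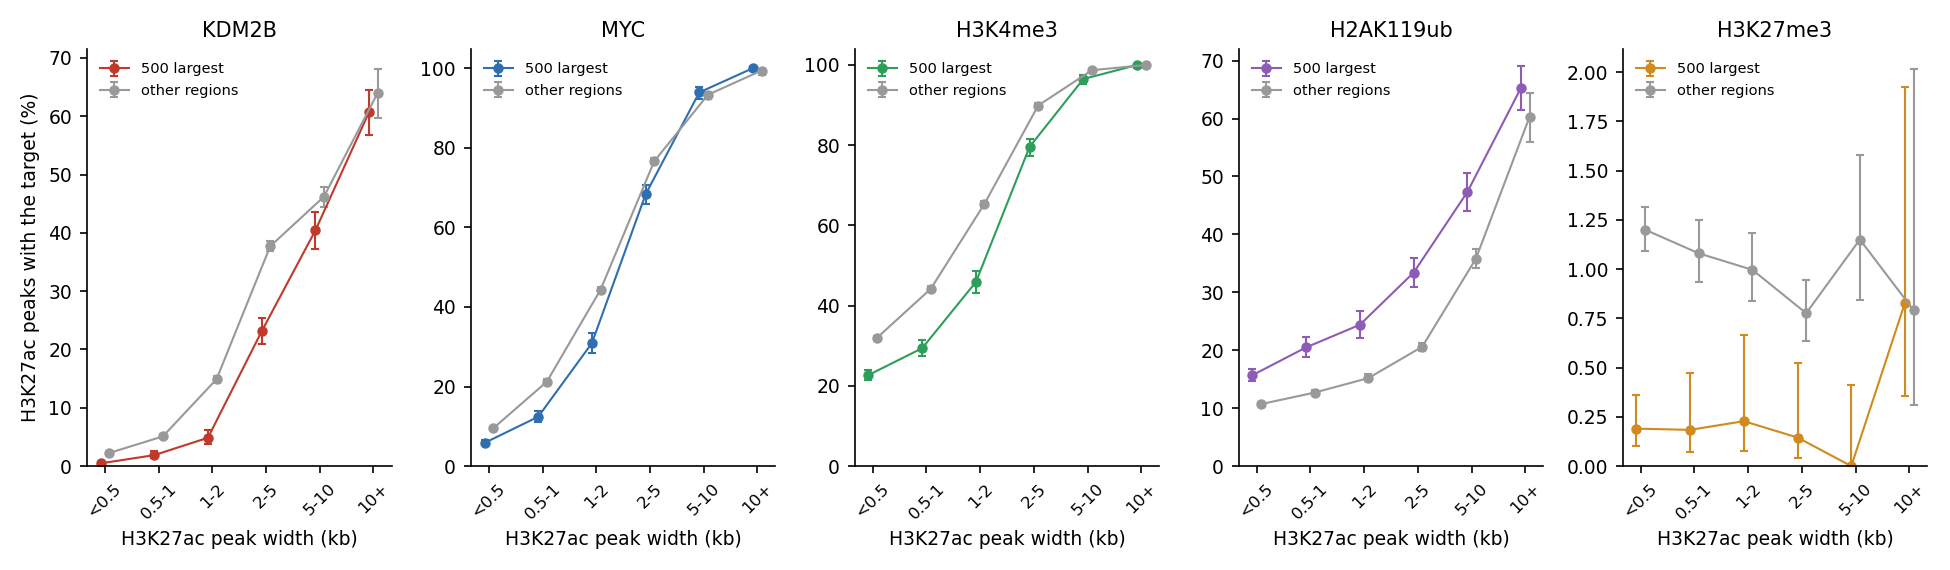
Percent of H3K27ac peaks that overlap a peak of each target (vertical axes, scaled separately) by width of the H3K27ac peak in kb, in the 500 largest regions (colour) and in all others (grey), with 95% Wilson intervals as bars. With peaks near and away from gene starts pooled, KDM2B, MYC and H3K4me3 are lower in the 500 regions for peaks under 5 kb (away from starts, at 2 to 5 kb, MYC is at 58.3% and 58.8% and KDM2B at 6.46% and 7.63%), H2AK119ub is higher at every width, and H3K27me3 stays below 2% in both.

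H2AK119ub had a peak in 413 of the 500 regions (82.6%, interval 79.0 to 85.7), beside 24.8% of all joined regions and 72.2% of the next 500. Its density was 2.50 peaks per 10 kb in the 500 regions, 2.63 in the next 500 and 1.97 in all other regions, and it covered 13.4%, 13.2% and 8.01% of acetylated bases. By this measure the density was not higher than in the regions next in rank, although per 10 kb of span it was 1.59 against 1.54. The coverage was nearly the same, and the density was 2.16 per 10 kb of covered DNA for ranks 1 to 100. Of the H3K27ac peaks, 25.2% carried H2AK119ub in the 500 regions, beside 15.9% of all H3K27ac peaks. The share was higher than in all other regions in each class of width, from 15.7% against 10.7% in peaks under 500 bp to 65.3% against 60.3% in peaks of 10 kb or more, though intervals overlapped in the widest class. Near gene starts 47.2% of H3K27ac peaks in the 500 regions had H2AK119ub, against 21.8% in all other regions. This comparison is not matched for width, since near-start peaks had median widths of 2651 and 1349 bp and the share rises with width. By bases, H2AK119ub covered 17.1% and 9.03% of these near-start peaks. Folds were low, with a median of 3.14 for the strongest peak of a region.

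At LAMA5, a laminin chain gene, and NOTCH1, H2AK119ub covered 67.6% and 64.0% of the acetylated bases, in regions with 2 of the 3 highest H2AK119ub folds (6.53 and 6.05), and with 3 and 2 H3K27me3 peaks. In contrast, 87 regions had no H2AK119ub peak, among them those of HIF1A, MIR100HG and SLC7A11. Of the KDM2B peaks in the 500 regions 35.9% overlapped H2AK119ub, against 20.5% in the other regions. KDM2B and H2AK119ub occurred together in 376 regions, KDM2B alone in 46, H2AK119ub alone in 37 and neither in 41. The 72 regions with 5 or more protein-coding genes had 4.07 H2AK119ub peaks and 1.85 KDM2B peaks per 10 kb, whereas the 193 regions with 1 gene had 1.66 and 0.501.

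H3K27me3 was nearly absent from the acetylated DNA. It had peaks in 53 of the 500 regions (10.6%, interval 8.20 to 13.6), beside 4.88% of all joined regions and 9% of the next 500. It covered 0.0300% of the acetylated bases, against 0.0716% in the next 500 and 0.280% in all other regions. Only 23 of 11132 H3K27ac peaks (0.207%) touched an H3K27me3 peak, beside 0.971% of all H3K27ac peaks. Its 137 peaks lay mostly in the gaps, since 16.1% of them overlapped an H3K27ac peak, against 35.5% in the other regions. A region made of 1 peak has no gap, which holds for 7433 of all joined regions but only 1 of the 500. The comparison is thus partly fixed by construction. Of the 53 regions, 52 also had H2AK119ub. The share of regions depended on the joining distance, at 3.6% with a gap of 5 kb and 33% with 25 kb, and it was 4.2% when the other lists were held to a q-value under 1e-5.

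DUSP1 (rank 97, chr5:172697246-172812334) had 14 H3K27me3 peaks, the most of any of the regions, and the highest fold, 4.19. They covered 8781 bp, none of it on H3K27ac. SOCS3 (rank 58), an inhibitor of cytokine signalling, had 5 peaks over 3955 bp, again none on H3K27ac. At TRIM28 (rank 429), a corepressor of zinc finger proteins, 1 peak of 3476 bp did overlap H3K27ac, by 1246 bp. Outside the regions H3K27me3 became more frequent with distance, at 0.187% of bases inside, 5.25% in the first 10 kb outside and 14.6% at 90 to 100 kb. The next 500 regions had a like profile, at 0.382%, 5.41% and 13.5%. H2AK119ub changed little over the same distance, at 11.9% inside, 14.0% in the first 10 kb and 15.9% at 90 to 100 kb, and in the next 500 it was at 12.2% inside and 13.8% at 90 to 100 kb. H3K27ac has no peak in the first 10 kb by construction.

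Regions without protein-coding genes were different in makeup from those with many. The 48 such regions had MYC and H3K4me3 without exception, KDM2B in 43.8% and H2AK119ub in 60.4%, and the strongest H3K4me3 peak had a median fold of 13.8. In the 72 regions with 5 or more genes KDM2B was in 100% and H2AK119ub in 97.2%, the H3K4me3 median was 54.4, and the strongest MYC peak had a median fold of 25.3 against 8.51. Covered length differed less, with medians of 39306 and 44756 bp.

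Promoter windows of 250 bases were compared by sequence. The 1524 windows on an H3K27ac peak in the 500 regions had a median of 64.8% G and C bases and 19 CpG dinucleotides, beside 65.6% and 21 in 12790 acetylated windows of the other regions. CACGTG was in 103 of the 1524 (6.76%, interval 5.60 to 8.13), beside 6.28% of all 33558 windows and 8.51% of the other acetylated ones. TGANTCA was in 106 (6.96%, interval 5.78 to 8.34), beside 6.55% of all windows and 4.61% (4.26 to 4.99) of the other acetylated ones. The ETS site CCGGAAGT, searched on both strands like the others, was in 99 (6.5%), beside 3.44% of all windows and 6.72% of the other acetylated ones. A match is a description of the letters and not a binding site. A gene can have several starts, so windows can overlap and hold the same copy of a motif. The windows are thus not independent, the intervals are too narrow, and no difference between groups was tested. MYC peaks overlapped 96.1% of the 103 windows with CACGTG and 87.1% of those without, with median folds of 16.5 and 13.3. KDM2B overlapped 56 of the 103 (54.4%) and 599 of the 1421 without CACGTG (42.2%). In the other acetylated windows it overlapped 41.1% of the 1089 with CACGTG and 41.7% of those without. The 103 windows are few, and whether the shares differ was not tested. H2AK119ub overlapped 11.7% of the 1524 windows, beside 4.61% of the other acetylated ones, 27.4% of those without H3K27ac and 18% of all windows.

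Arrays of near-identical RNA genes make up a few of the regions, and reads from such copies cannot be assigned to 1 copy with certainty, so their values are uncertain. The region ranked 426 (chr1:228608455-228648518) held 17 of 49 rRNA gene records. It had 30 KDM2B peaks and MYC over 94.1% of its acetylated bases, although its highest folds were 3.05 for KDM2B, 4.46 for MYC and 5.99 for H3K27ac, the lowest H3K27ac maximum of the 500. The region ranked 46 (chr17:43228404-43373520) held 14 of 151 snRNA records with 58 MYC peaks, the most of any of the regions, and 27 KDM2B peaks. Of 425 tRNA gene records, 50 (11.8%) lay in 13 of the regions, 15 of them in the region ranked 142 at PER1 and AURKB. Small nucleolar RNA genes gave 62 of 1150 (5.39%), in 37 regions, with 9 of them in the region of SLC3A2 and SNHG1. Leaving out the 5 regions that hold 5 or more rRNA, snRNA or tRNA genes gave a KDM2B density of 0.792 per 10 kb.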

How the data were processed

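Groups of libraries were formed from the antibody and the cell stock given in each title. Whether a pair of libraries came from separate cultures was not stated per the labels. Per the submitters' processing notes, Trim Galore, Bowtie2 2.4.5, SAMtools 1.6 and MACS2 2.2.7.1 were used with genome build hg38. The control of each list and any pooling of libraries were not given in the sources used here. The deposited narrow-peak lists give for each peak a score, a fold (the authors' ratio of summit signal to local background) and the −log10 p-value and −log10 q-value of the authors' peak caller, with a highest q-value of 0.0500. The score equals 10 times the −log10 q in 100% of the deposited peaks (to within 1). Folds served only within 1 list, to describe or rank its peaks. Depth is unknown without read counts.

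H3K27ac peaks were joined and ranked as stated in the report, and peaks of other lists counted where at least 1 bp overlapped a region or an H3K27ac peak. Gene records, promoter windows and microRNAs came from RefSeq, assembly GRCh38.p14. Starts were those of the promoter table (several per gene) and, for 4022 of 19122 protein-coding genes without an entry, both ends of the record, since strand was not used there. Shares have 95% Wilson intervals. No test was run, because each target has 1 list and the regions were chosen by H3K27ac. Calculations used Python 3.11.15, numpy 2.4.6, pandas 2.3.3 and scipy 1.17.1, and the joining, ranking, overlap and motif steps were checked on simulated data.

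The regions, gene lists and comparisons were chosen with earlier results of these data known. Named genes were those of the 20 largest regions, up to 6 per list in rank order, those with the highest fold or most peaks of each target, those at the boundary and the 13 amino acid genes. Other genes, such as JUN, CD44, VIM, NOTCH1 and the gene pairs at the widest peaks, were named after their values were seen. Some results are not reported here.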

Additional observations from a re-analysis of the deposited data

How the results depend on the processing

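The set of regions depends on how peaks are joined and ranked. With a gap of 5 kb, 370 of the 500 regions (74%) overlapped the new set, with 25 kb 384, ranked by span 383, ranked by width times fold 350, and with H3K27ac peaks near gene starts removed 278. With 5 kb the share with KDM2B was 79.6%, with H2AK119ub 78.6% and with H3K27me3 3.6%, and 81.7% of H3K27ac peaks lay away from gene starts. With 25 kb these values were 89.6%, 87.4%, 33% and 78.1%, and 2065 protein-coding genes overlapped the regions in place of 1226. With near-start peaks removed the shares were 41.8% for KDM2B, 99.2% for MYC, 61.6% for H2AK119ub and 4.2% for H3K27me3, with 409 genes. Ranked by width times fold, KDM2B was at 88% and H2AK119ub at 78%. The 250 largest regions gave 90.8% for KDM2B, 88.8% for H2AK119ub, 81.6% of peaks away from starts and 683 genes, and the 1000 largest gave 77.1%, 77.4%, 80% and 2063. With other lists at a q-value under 1e-5 the shares were 76.6% for KDM2B, 61.2% for H2AK119ub and 4.2% for H3K27me3. Limited to 15000 peaks in each list, those with the highest folds, they were 96.4% for MYC, 91% for H3K4me3, 29% for H2AK119ub and 0% for H3K27me3. H3K27ac peaks at a q-value under 1e-5 gave 76.4% away from starts, windows of 1 kb and 5 kb gave 86.3% and 69.9%, and counting both ends of the other lncRNA records as starts, an alternative chosen after seeing the data, gave 77.6%. Where the number of regions or peaks was changed, fewer or more of them enter by construction, and otherwise the cause was not tested. The remaining 46 of 81 alternative values stayed within the 95% interval of the reported value or, for gene counts, within 1.5 times of it. The alternative of leaving out arrays of near-identical RNA genes was also chosen after seeing the data.

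No paired analysis was possible because each target has 1 list that carries no replicate, and leaving out a replicate could not be done for the same reason. Unknown depth limits each list: a region without a peak had none that passed the caller's threshold. H3K27me3 and H2AK119ub are broad marks listed here as narrow peaks, so their counts depend on how a domain was split. Shares of regions grow with region length, and peaks in 1 region are not independent.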

Other observations

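H3K27ac peaks close to the record width of 56247 bp occurred in other regions as well. They were 55896 bp at CAPN2, a calpain protease gene, and TP53BP2 (rank 42), 55607 bp at CYP11A1 and SEMA7A (rank 115), and 54597 bp at MIR100HG (rank 31). The region of ME3, mitochondrial malic enzyme (rank 27), was among the 5 longest in span, at 213456 bp, but only 45.2% of it was covered. NEDD4L, a ubiquitin ligase gene (rank 25), had 85 peaks, the fourth most after PVT1, EXT1 and CRIM1 with FEZ2. In the 53 regions with no H3K27ac peak near a listed gene start, the strongest MYC peak had a median fold of 8.62 and the strongest H3K4me3 peak 13.4, against 17.2 and 49.9 in the other 447. KDM2B had a peak in 39.6% of those 53, and H3K27me3 in none.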
